A study of Mus musculus with 24 samples.

Results

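Brown adipocyte genes are described here in the mammary gland of mice given progesterone: 9 genes that are switched on in brown fat, Ucp1, Cidea, Cox8b, Cox7a1, Prdm16, Elovl3, Cpt1b, Ppargc1a and Dio2. They were taken by symbol, and each was read from the probe set with the highest mean among those that the platform annotation assigns to that symbol alone. Such a probe set was found for 8 of the 9 genes, among 18193 genes in all, and these 8 are among the 12352 genes tested. The only probe set listed for Cpt1b, the muscle-type carnitine palmitoyltransferase, carries several gene symbols and was not analysed here. Nulliparous Balb/c females without ovaries were compared 4, 16, 28 and 76 h after a first injection of progesterone (P4) or of its vehicle, sesame oil. Their ovaries had been taken out at 6 weeks of age, and treatment began after 2 weeks of rest. P4 mice received 1 mg in 100 µl of oil under the skin each day, and control mice received 100 µl of oil. No group kept its ovaries, so all 8 groups share the loss of ovarian hormones. The labels name no other allele or agent. Injections were daily, so the 4 h and 16 h groups lie within the first day and the 28 h and 76 h groups after it. For these later groups the number of injections and the time since the first one cannot be told apart. If the daily intervals were even, the 16 h group also differs from the others in the time since the latest injection. Each group has 3 Affymetrix Mouse Genome 430 2.0 arrays, 24 in all, and each array carried mammary RNA pooled from 5 mice. A value is therefore a mean over the mammary tissue of 5 mice, in which fewer cells of a type and less RNA per cell cannot be told apart, and a p-value measures the spread between pools.

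Brown adipocytes burn fatty acids to make heat. The uncoupling protein UCP1 lets protons back through the inner mitochondrial membrane without making ATP, the transcription factor PRDM16 and the coactivator PGC-1α (Ppargc1a) drive the brown program and the making of mitochondria, and noradrenaline acts through cyclic AMP to switch it on. The mouse mammary gland grows inside a white fat pad, and in young females this pad can hold scattered cells that express Ucp1. Several of the 8 genes are also active elsewhere: Cox8b and Cox7a1 in heart and skeletal muscle, Ppargc1a in muscle, and Cidea in the secretory epithelium of the lactating gland.

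The defining brown gene, Ucp1, varied around the median of all probe sets, from 11.2 to 208 over the 24 arrays. Ucp1 lay above the median of all probe sets on its array on 12 of the 24 arrays, Ppargc1a on 14, Prdm16 and Elovl3 on 18, and Dio2 on 5. Cidea, Cox8b and Cox7a1 lay above it on all 24. Of the 5 arrays on which Dio2 passed, 3 were those of P4 at 76 h, which leaves 2 where the filter asks for 3, so that Dio2 entered the test only through the group in which it was highest. Its values are therefore given as a description, with no test. The array medians were between 62.8 and 70.2. White fat markers were abundant, with Adipoq, the adiponectin gene, at 11270 ± 197 in oil and 10727 ± 526 with P4 at 76 h (mean ± SD, n = 3). Over all genes, limma called 23, 38, 313 and 2195 changes at the 4 times in turn (adjusted p under 0.05). The 4 h count became 477 without P4 4 h replicate 3, and the 16 h count 1843 without P4 16 h replicate 1.

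To show what lies just ahead of these genes, the 250 bases before the annotated start were read from RefSeq's GRCm38.p6 table, from which 6 of the 8 tested genes were taken. Cidea and Elovl3 were not used here. The sequences of Cox8b, Cox7a1 and Prdm16, which were called lower at 76 h, and of Dio2, whose difference was positive, are given 5′ to 3′. Capitals mark matches to the searched motifs, all of which fell in Dio2.
Cox8b (chr7:140900447-140900696, minus strand): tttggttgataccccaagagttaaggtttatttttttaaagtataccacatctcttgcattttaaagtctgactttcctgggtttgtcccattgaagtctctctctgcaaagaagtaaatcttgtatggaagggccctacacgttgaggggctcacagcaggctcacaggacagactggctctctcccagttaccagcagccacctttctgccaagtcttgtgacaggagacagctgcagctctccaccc
Cox7a1 (chr7:30183921-30184170, plus strand): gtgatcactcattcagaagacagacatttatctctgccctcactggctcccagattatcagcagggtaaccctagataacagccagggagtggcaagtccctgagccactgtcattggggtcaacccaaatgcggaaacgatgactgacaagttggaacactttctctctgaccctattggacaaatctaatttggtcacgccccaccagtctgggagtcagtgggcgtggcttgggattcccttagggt
Prdm16 (chr4:154636874-154637123, minus strand): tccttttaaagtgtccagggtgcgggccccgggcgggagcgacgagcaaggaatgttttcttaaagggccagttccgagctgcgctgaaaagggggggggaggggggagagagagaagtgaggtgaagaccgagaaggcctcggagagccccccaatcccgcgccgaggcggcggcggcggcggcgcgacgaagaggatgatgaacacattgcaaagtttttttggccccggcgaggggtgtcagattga
Dio2 (chr12:90739039-90739288, minus strand): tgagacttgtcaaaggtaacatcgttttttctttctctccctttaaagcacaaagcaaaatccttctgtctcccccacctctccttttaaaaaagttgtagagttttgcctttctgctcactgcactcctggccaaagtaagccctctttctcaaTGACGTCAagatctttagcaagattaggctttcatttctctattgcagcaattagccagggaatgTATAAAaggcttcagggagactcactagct
In a search of both strands, Dio2 held TGACGTCA, the full cyclic AMP response element, from base 95 to base 88 before the start, a word found in 1.55% of 32851 promoters of this length. It also held the TATA box core TATAAA from base 30 to base 25, found in 12.4%. None of the 6 genes, Ucp1 and Ppargc1a included, held the other words searched. These were AAGGTCA, bound by ERR-type receptors (in 4.08% of promoters), AGGTCA repeated after 1 free base, a PPAR-type site (0.0335%), GNACA and TGTNC around 3 free bases, a steroid receptor palindrome (0.387%), TGTTCT, a single arm of a progesterone receptor site (16.1%), and CTA and TAG around 4 free bases, a MEF2-type site (3.20%). AAGGTCA can overlap the first AGGTCA of a PPAR-type match. A match is a word in this window, not a shown binding site.

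After 76 h of P4, the mitochondrial and lipid droplet genes Cidea, Cox8b and Cox7a1 stood at 40.1% to 50.3% of their oil level, and Prdm16 at 65.5%. These 4 of the 8 genes were called lower and 0 were called higher, where 17.8% of all genes tested were called in either direction, 6.7% lower and 11.1% higher. With limma at an unadjusted p under 0.05, 6 of the 8 passed, where 29.5% of all genes did. The P4 arrays lay entirely below the oil arrays for 7 genes (18.9% of all genes did so) and entirely above them for Dio2 (25.8%). The median change of the 8 was -0.80 on the log2 scale, against 0.02 over all genes, as a description of genes of which Dio2 passed the filter only through the P4 arrays of this time.

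Cidea, a protein that fuses lipid droplets, read 484, 537 and 465 in oil at 76 h and 154, 238 and 213 with P4. Every P4 array was thus lower than every oil array. The change was -1.32 ± 0.21 on the log2 scale (SE; 95% interval -1.75 to -0.89), or 2.50-fold lower, with an adjusted p of 6.86e-05. The highest of these P4 arrays, at 238, was also below the lowest of the other 21 arrays, at 371. Its relative Cidec, the droplet protein of white fat, was at 4239 in oil and 3971 with P4 (log2 change -0.11 ± 0.12, adjusted p = 0.610).

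Cox8b, a muscle and brown fat form of a cytochrome c oxidase subunit, read 3065, 3309 and 2615 in oil and 1386, 1403 and 1046 with P4. The groups were separate, and the 3 P4 arrays were again the lowest of all 24, the next array standing at 1523. The change was -1.24 ± 0.20 (95% interval -1.65 to -0.82), or 2.35-fold lower, with an adjusted p of 9.90e-05. Cox8a, the form made in most tissues, had a log2 change of -0.27 ± 0.10 and did not pass the test (adjusted p = 0.0762).

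Cox7a1 encodes a subunit of the same enzyme with the same tissue pattern. It read 277, 359 and 220 in oil and 124, 150 and 149 with P4, again without overlap at 76 h. Among the other 21 arrays, 2 were below the highest of these P4 arrays, 1 of them an oil array. The change was -0.99 ± 0.23 (95% interval -1.46 to -0.52), or 1.99-fold lower, with an adjusted p of 0.00303. The general form Cox7a2 fell by 0.21 on the log2 scale (adjusted p = 0.0374), while its relative Cox7a2l, which helps respiratory complexes assemble, rose by 0.20 (adjusted p = 0.0214).

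**Figure D1:**
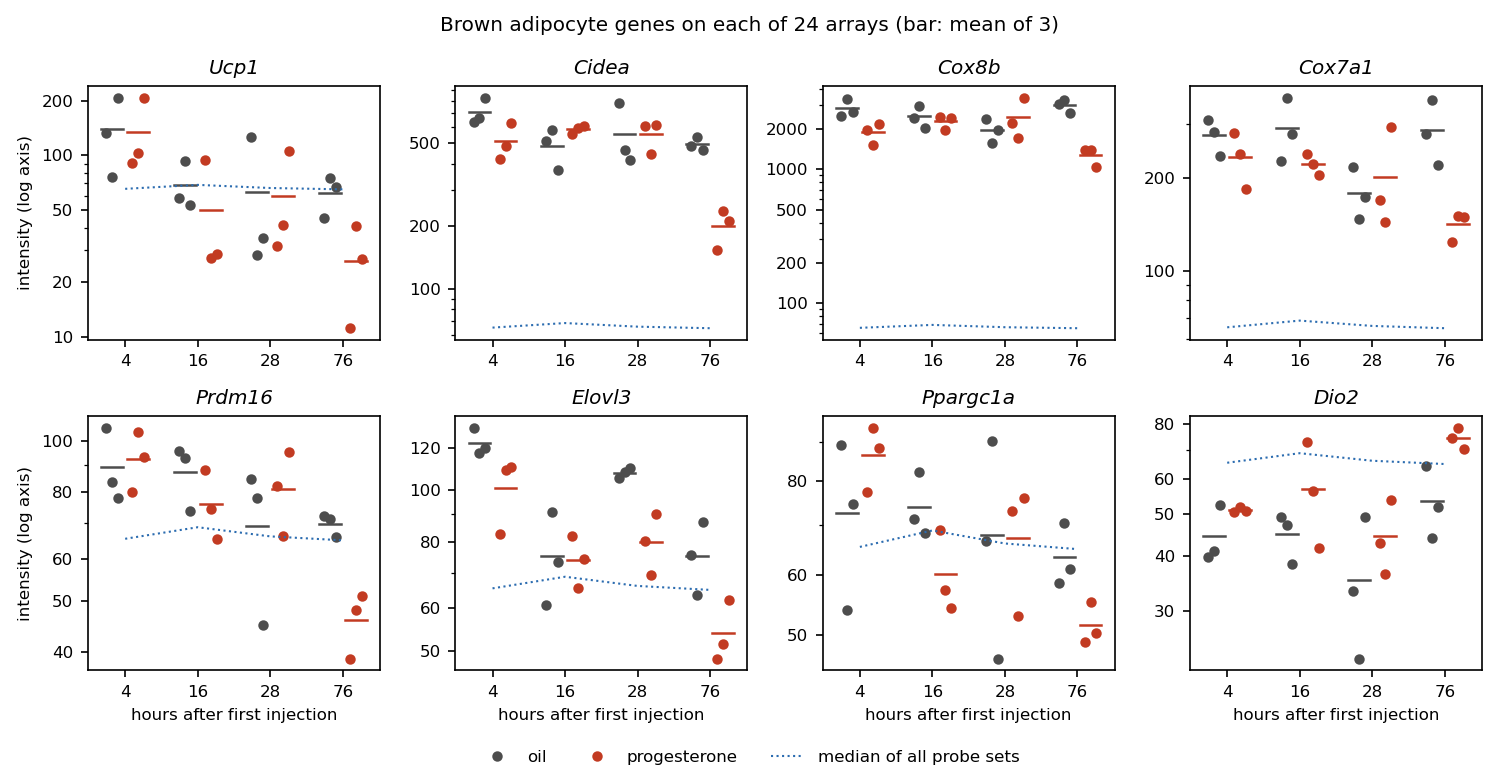
Intensity of the 8 genes (log axis) on each of the 24 arrays by hours after the first injection, oil in grey and progesterone in red; the 3 dots of a group are replicates 1 to 3 from left to right, the bar is their mean, and the dotted line is the median of all probe sets. At 76 h the progesterone dots of Cidea (154 to 238) and Cox8b (1046 to 1403) lie below every other array.

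Prdm16 read 72.2, 71.2 and 66.0 in oil and 38.9, 48.1 and 51.0 with P4 at 76 h. Oil arrays were just above the array median and P4 arrays below it, where a fold change is imprecise. The fall of 0.61 ± 0.21 on the log2 scale passed the test by little (adjusted p = 0.0490), and without any 1 of the 6 arrays of this time it no longer did (adjusted p up to 0.205 without P4 replicate 1). Other probe sets of Prdm16 lay under the filter and differed in sign, with 0.52, -0.51 and 0.13 at 76 h. Its closest relative Mecom had a change of -0.30 ± 0.21 (adjusted p = 0.363).

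Ppargc1a read 58.7, 70.3 and 61.2 in oil and 49.0, 55.2 and 50.3 with P4. The arrays did not overlap, yet the change of -0.30 ± 0.22 was not called (adjusted p = 0.392) and its 95% interval ran from -0.74 to 0.15. The related coactivator Ppargc1b had a change of -0.21 ± 0.21 (adjusted p = 0.558).

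Ucp1 read 45.0, 74.9 and 66.6 in oil and 11.2, 40.9 and 26.8 with P4. All P4 arrays lay below the oil arrays of that time, but 5 of the other 21 arrays were lower than the highest of them. All 3 were also below the median of their array, where the size of a fold is uncertain. The change of -1.40 ± 0.58 had the widest 95% interval of the 8, from -2.59 to -0.20, and was not called (adjusted p = 0.101). Its paralog Ucp3, found in muscle and brown fat, fell from 279 to 136 (log2 change -1.05 ± 0.19, adjusted p = 0.000385).

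Elovl3, which lengthens very long chain fatty acids in brown fat and skin, read 75.5, 63.6 and 87.0 in oil and 48.3, 51.4 and 62.3 with P4. The groups nearly met, at 63.6 and 62.3, and the change of -0.48 ± 0.17 narrowly missed the threshold (adjusted p = 0.0570). It passed without oil 76 h replicate 2 (adjusted p = 0.0407) or P4 76 h replicate 3 (0.0386). Elovl6, which lengthens palmitate in fat synthesis, fell from 5678 to 2600, a change of -1.13 ± 0.14 (adjusted p = 3.92e-06).

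Dio2, the deiodinase that activates thyroid hormone inside the cell, was the only one of the 8 with a positive difference at 76 h. It read 64.4, 44.1 and 51.8 in oil and 74.6, 78.6 and 70.5 with P4. The P4 arrays lay above all 12 oil arrays of the series. The difference from oil at 76 h was 0.50 ± 0.25. Other probe sets of Dio2, which lay under the filter, did not share it, with -0.37 and 0.06 at 76 h. Of the 6 genes searched, Dio2 alone held the full cyclic AMP element, and shorter forms of it were not searched. Any part of this element in the difference was not tested.

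**Figure D2:**
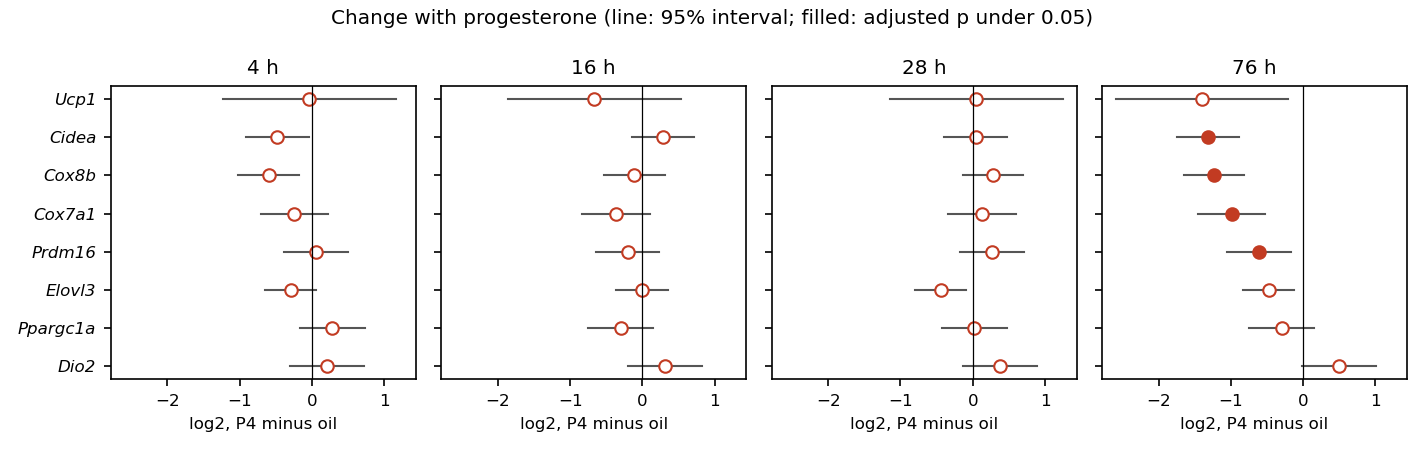
Log2 change of each gene, progesterone minus oil, at each time; points are limma estimates from 3 against 3 arrays, lines their 95% intervals, and filled points have an adjusted p under 0.05. Filled points appear at 76 h for Cidea (-1.32), Cox8b (-1.24), Cox7a1 (-0.99) and Prdm16 (-0.61).

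The P4 arrays of 76 h were also set against the 9 oil arrays of the 3 earlier times. There 6 of the 8 genes were called lower, where 32.6% of all genes were called in either direction and 15.7% lower. Cidea (-1.51), Cox8b (-0.91), Cox7a1 (-0.77) and Prdm16 (-0.81) were again called. Ucp1 (-1.70, adjusted p = 0.00738) and Elovl3 (-0.89, adjusted p = 3.39e-05) passed there too. Ppargc1a did not (-0.44, adjusted p = 0.0576), and the difference of Dio2 was 0.88. Both comparisons use the same 3 P4 arrays. Against all 12 oil arrays 6 of the 8 were called lower, where 30.6% of all genes were called in either direction and 14.3% lower.

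None of the 8 genes was called at the 3 earlier times. At 4 h the changes ran from -0.60 to 0.28, and 0 of 8 were called (0.186% of all genes were). An unadjusted limma p under 0.05 was found for 2 of 8 (12.6% of all genes). Those were Cox8b, with 2497, 3372 and 2676 in oil against 1961, 1523 and 2160 with P4 (-0.60 ± 0.20, adjusted p = 0.195), and Cidea, with 631, 663 and 830 against 420, 487 and 627 (-0.48 ± 0.21, adjusted p = 0.331). Both sets of P4 arrays lay below their oil arrays, as did those of Elovl3 (131, 117 and 120 against 82.9, 109 and 111), which makes 3 of 8 where 12.8% of all genes did so.

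With oil arrays from the later times as controls, the 4 h value of Cidea was 0.00551 and that of Elovl3 was 0.25. The oil arrays of 4 h were the highest group for Cidea (708 ± 107), Ucp1 (139 ± 65.7) and Elovl3 (123 ± 7.19). RNA integrity was read as the log2 ratio of actin probes at its 3' end to those at its 5' end. This ratio differed on these arrays, with 0.557 ± 0.0447 for P4 and 0.425 ± 0.0150 for oil. The same ratio for Gapdh was 0.199 ± 0.177 for P4 and -0.0786 ± 0.103 for oil. The part of RNA integrity in the 4 h values was not tested. With arrays weighted in limma by their spread around the group means, 3 genes were called at 4 h and 6 at 16 h. At 28 h 1 was called, Dio2, which passed the filter only through the P4 arrays of 76 h. Calls over all genes also rose, to 2771, 7332 and 1619. The weights ran from 0.216 (P4 16 h replicate 1) to 5.50 (P4 4 h replicate 1).

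At 16 h the changes ran from -0.66 (Ucp1) to 0.31 (Dio2). In limma 0 of the 8 were called (0.308% of all genes) and 0 had an unadjusted p under 0.05 (17.7% of all genes). P4 and oil arrays overlapped for all 8 (11.7% of all genes lay wholly below oil and 5.37% wholly above). Cidea, for one, read 512, 581 and 371 in oil and 554, 594 and 609 with P4. At 28 h the changes ran from -0.44 to 0.38, and 0 of 8 were called in limma (2.53% of all genes). An unadjusted p under 0.05 was found for 1 of 8, near the share of all genes (12.4%). That gene was Elovl3, which read 105, 108 and 110 in oil and 80.3, 69.2 and 90.2 with P4, the only one of the 8 without overlap at 28 h (5.24% of all genes lay wholly below). Its change was -0.44 ± 0.17 (adjusted p = 0.228).

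A moderated F-test asked whether the difference between P4 and oil itself varied over the 4 times. It was called for 2 of the 8 genes, Cidea (adjusted p = 0.00274) and Cox8b (0.00449), against 10% of all genes. The 76 h change of Cidea was lower than that at 16 h by a log2 difference of -1.61 (adjusted p = 0.000799) and than that at 28 h by -1.36 (0.00442). Its difference from the 4 h change, -0.84, was not called (adjusted p = 0.0853). For Cox8b the differences were -1.51 from 28 h (adjusted p = 0.00131), -1.12 from 16 h (0.0119) and -0.63 from 4 h (0.196). Cox7a1 was not called in the F-test (adjusted p = 0.105).

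The controls moved as well. Over the 4 oil groups 1 of the 8 genes was called, Elovl3 (adjusted p = 0.00892), against 12.2% of all genes, and another passed as well without P4 28 h replicate 3. Elovl3 was lower in oil at 16 h than at 4 h by a log2 difference of -0.73 (adjusted p = 0.0359) and at 76 h than at 4 h by -0.71 (0.0264). The 4 oil means, in order of time, were 123, 75.1, 107.9 and 75.4. The 4 h and 28 h groups were high and the others low, with no overlap between them.

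In order of mean intensity, the P4 76 h group stood lowest for 7 of the 8 genes and highest for Dio2. For Cidea the next group was oil at 16 h (488 ± 107), and the means then rose to 708 ± 107 in oil at 4 h. For Cox8b the next was P4 at 4 h (1881 ± 326) and the top was oil at 76 h (2996 ± 353). For Cox7a1 the groups ran from oil at 28 h (179 ± 35.2) to oil at 16 h (289.5 ± 69.5). Among the groups other than P4 at 76 h, neighbours in these orders differed by less than the larger of their SDs. The exception was Cidea in oil at 4 h, which stood further above P4 at 16 h (586 ± 28.5).

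The arrays of a group were unevenly spread, most of all for Ucp1. Its residual SD on the log2 scale was 0.823, larger than that of 99.6% of the genes tested, whose median was 0.171. In oil at 28 h Ucp1 read 126, 28.1 and 35.1, and with P4 at 16 h 94.5, 27.2 and 28.5. In each case 1 pool of 5 mice stood well above the others. For the other 7 genes the residual SD ran from 0.193 (Elovl3, larger than that of 60.8% of genes) to 0.311 (Cox7a1, 90.9%).

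High and low values fell on the same arrays for many of the 8 genes. With P4 at 28 h, replicate 3 was the highest of its group for 8 of the 8 genes, and replicate 2 the lowest for 7. No share over all genes was counted for such orders in any group. Summed lists shared this order: white fat (replicate 2 at -0.057 and replicate 3 at 0.064, log2 deviation from the group mean) and fatty acid oxidation (-0.14 and 0.16). Replicate 2 was also lowest for the fast muscle, luminal and basal lists, but highest for the lymphocyte list (0.21). On these arrays Cox8b read 2219, 1719 and 3429, and Ucp1 31.6, 41.3 and 106. With P4 at 16 h, replicate 1 was highest for 7 genes. With P4 at 76 h, replicate 2 was highest and replicate 1 lowest for 6 genes each.

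**Figure D3:**
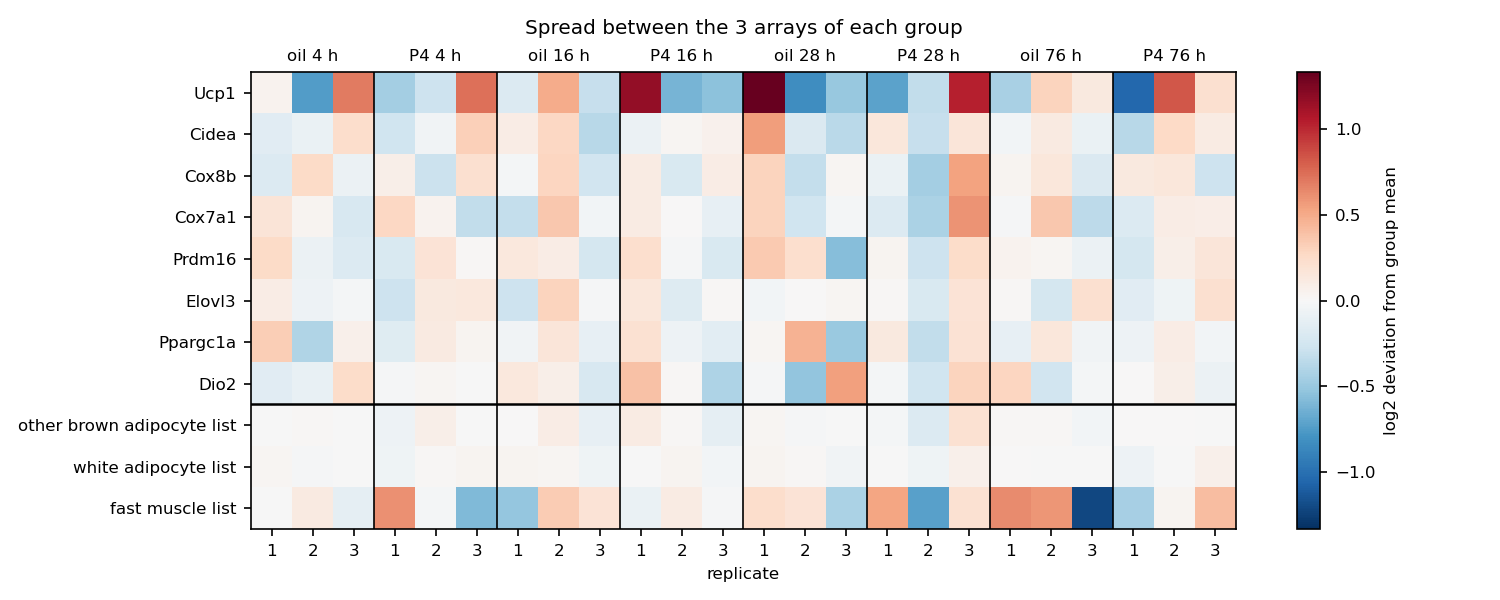
Deviation of each array from the mean of its group (log2, color scale) for the 8 genes and the summed level of 3 marker lists; columns are the 3 replicates of each group. Ucp1 has the strongest colors (oil 28 h replicate 1 at 1.34), while the white fat list stays pale and the muscle list reaches -1.22 on oil 76 h replicate 3.

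Deviations from the group means were compared over the 24 arrays as a description. The arrays share their groups' means, so that 16 degrees of freedom remain. Of 28 pairs of the 8 genes, 26 had a Pearson r above 0 and 4 above 0.5, with a median of 0.34. The highest was that of both regulators, Prdm16 and Ppargc1a (r = 0.76, Spearman's rho = 0.78, and r = 0.73 without the 2 farthest arrays). Ucp1 and Cidea had r = 0.68 (rho = 0.63, and 0.68 without the 2 farthest arrays), and Cox8b and Cox7a1 r = 0.59 (rho = 0.52, and 0.36 without them).

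The same deviations were set against summed marker lists. Prdm16 followed the white fat list (r = 0.79, rho = 0.78), as did Cidea (r = 0.70, rho = 0.67). Cox7a1 followed the fast skeletal muscle list (r = 0.64, rho = 0.63), Cox8b less (r = 0.22, rho = 0.21) and Ucp1 hardly (r = -0.01, rho = -0.03). The summed muscle level at 76 h was 50298, 48626 and 13920 in oil and 18270, 25342 and 32919 with P4. These overlap, and 0 of the 23 muscle genes tested were called by limma at 76 h. At an unadjusted p under 0.05 1 passed (29.5% of all genes), but all 23 had a negative change, with a median of -0.45. The defining muscle genes Acta1 (-0.28, adjusted p = 0.630) and Ckm (-0.40, adjusted p = 0.615) were among them. With the 9 oil arrays of 4, 16 and 28 h as controls, 11 of the 23 were called lower at 76 h, and 3 of 10 slow or cardiac muscle markers (15.7% of all genes). The median of the 23 was -0.49 at 4 h, -0.82 at 16 h and 0.75 at 28 h. At these times Cox8b stood at -0.60, -0.11 and 0.28 and Cox7a1 at -0.24, -0.36 and 0.12. Both genes thus had the sign of the muscle median at all 4 times. So did Ucp1, at -0.037, -0.66, 0.050 and -1.40 in order of time, which hardly followed the muscle list. The part of muscle RNA in the values of Cox7a1 and Cox8b was not tested.

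Over the 24 arrays, group differences included, the genes most like Cidea were Prkaca (r = 0.94), a catalytic subunit of the cyclic AMP-dependent kinase, the pentose phosphate enzyme gene Tkt (0.93) and the complex I subunit gene Ndufb8 (0.93). Those most like Cox8b were the complex III subunit gene Uqcrq (0.92), Mrpl55 (0.90) and Ugp2 (0.89). The best for Ucp1 was Ankrd40 (0.86), for Cox7a1 Stradb (0.86), for Prdm16 Ppp1r14a (0.89), for Elovl3 Rilp (0.89), for Ppargc1a Ppp6c (0.86) and for Dio2 Tceal8 (0.86). With 12352 genes to choose from, a high r for the best gene is a description only.

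Other genes enriched in brown fat gave a smaller shift at 76 h. Of 18 tested, 4 fell and 1 rose, with a median change of -0.35, where 6.7% of all genes fell and 11.1% rose. The potassium channel gene Kcnk3 fell from 211 to 106 (-0.99 ± 0.17, adjusted p = 0.000214), and Ppara, the receptor that turns on fatty acid oxidation, fell by 0.76 ± 0.21 (adjusted p = 0.0147). Pank1, which makes coenzyme A, fell by 0.53, Ntrk3 by 0.43, and the nucleoside transporter gene Slc29a1 rose by 0.44. Among 42 regulators of the thermogenic program 6 fell and 5 rose, with a median of -0.05, and the share that rose was near that of all genes. Lpin1, a lipid phosphatase and coactivator, fell by 0.81, the retinoid receptor gene Rxrg by 0.58 and Cebpd by 0.55. Ctbp2, a corepressor that binds PRDM16, rose by 0.69, and Twist1 (0.53), Tle3 (0.46), Bmpr1a (0.41) and Ehmt1 (0.30) rose too. In this list Irf4 was called at 28 h as well (-0.62 ± 0.15, adjusted p = 0.0252). The β-adrenergic receptor genes were not among the genes tested.

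Genes of fatty acid oxidation and of lipolysis had smaller median changes. Of 21 fatty acid oxidation genes 8 fell and 1 rose at 76 h (median -0.24), where 6.7% of all genes fell and 11.1% rose. Crat fell by 0.47, Cpt2, the partner enzyme of carnitine palmitoyltransferase 1, by 0.42, and Decr1 by 0.40, while Eci2 rose by 0.36. The liver-type Cpt1a rose from 524 to 934 (0.83 ± 0.12, adjusted p = 1.36e-05). Of 10 lipolysis genes 6 fell and 0 rose (median -0.32), led by G0s2, an inhibitor of the main fat lipase, at -0.87 ± 0.14, and Gpd1 at -0.47. Of 8 genes of creatine and calcium cycling, another heat-producing route, 0 were called by limma and 2 had an unadjusted p under 0.05 (29.5% of all genes).

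**Figure D4:**
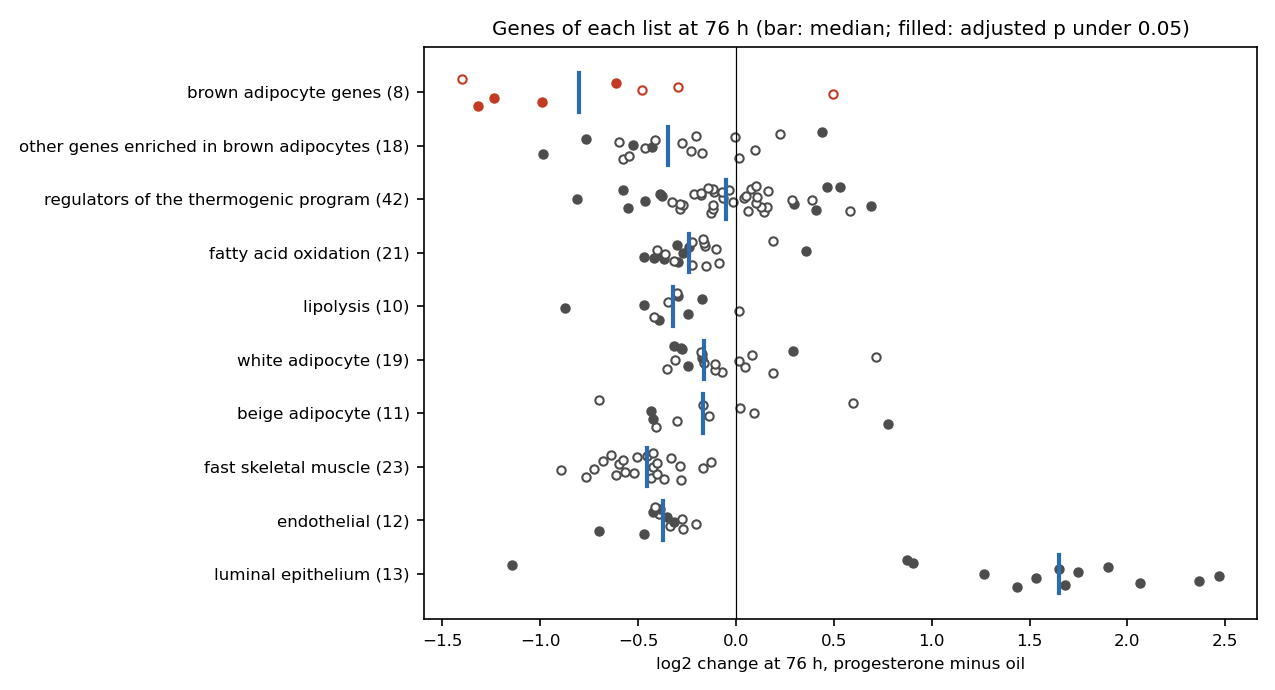
Log2 change at 76 h, progesterone minus oil, of each tested gene in 10 lists (number of genes in parentheses); bars are medians and filled points have an adjusted p under 0.05. The 8 brown adipocyte genes have a median of -0.80, the white adipocyte list -0.17 and the luminal epithelium list 1.65.

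Markers of other cell types of the gland changed at 76 h as well. The summed level of the 19 white fat markers was 114469 to 115571 in oil and 101199 to 110866 with P4 at 76 h, and 5 of them fell and 1 rose (median -0.17). Thrsp (-0.31), Retn (-0.28), Rbp4 (-0.28), Cd36 (-0.24) and Lpl (-0.17) fell and Psat1 rose (0.29), while Adipoq (-0.07) and Lep (-0.31) were not called. Fabp4 read 13993 to 15561 on the 24 arrays, close to the highest value of the table (15710), so that no change is read from it, and it is part of the summed level. Against the mean log2 of the white fat list on the same array, a measure chosen after the values were seen and not tested, the 76 h difference was -1.24 for Cidea, -1.16 for Cox8b, -0.92 for Cox7a1, -0.54 for Prdm16 and -1.32 for Ucp1, without overlap. It was -0.40 for Elovl3 and -0.22 for Ppargc1a, with overlap, and 0.57 for Dio2, without. Of 11 beige fat markers 2 fell (Shox2 and Hoxc8) and Cited1 rose, where 6.7% of all genes fell and 11.1% rose. The share of beige markers that rose was near that of all genes. At 28 h Cited1 was called lower in limma (-1.05, adjusted p = 0.00662) and Klhl13 higher (0.60).

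Of 13 luminal epithelial markers 12 rose and Ly6d fell (-1.14) at 76 h. Their summed level was 6499 to 8111 in oil and 18969 to 21442 with P4, with Krt8 up by 1.90 and Krt18 by 1.27. Basal markers rose for 10 of 14 genes. Endothelial markers fell for 6 of 12 (median -0.37) and lymphocyte markers for 6 of 11, while 1 of 11 macrophage markers, Cd14, rose (0.47). Over all genes 6.7% fell and 11.1% rose at 76 h, and the share of macrophage markers that rose was near that of all genes. Of 10 slow or cardiac muscle markers 0 were called by limma and 1 had an unadjusted p under 0.05 (29.5% of all genes). The part of these shifts in the changes of the 8 genes was not tested. The actin ratio at 76 h was 0.339 ± 0.0331 in oil and 0.399 ± 0.0476 with P4. That of Gapdh went the other way, with -0.113 ± 0.0244 in oil and -0.140 ± 0.0292 with P4.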

How the data were processed

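Trizol-extracted RNA was labelled with biotin and hybridized, per the labels' protocols. The deposited values are linear intensities for 45101 probe sets on 24 arrays. The software that summarized them, and any normalization by the authors, is not given in the sources used here. Array number limits the precision.

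The platform annotation of 2016 gives 1 symbol to 34958 probe sets, several to 932 and none to 9211. Values were floored at their 10th percentile (7.38) before taking log2. Array medians differed by up to 0.16 on that scale, so no further normalization was applied. A probe set had to exceed its array's median on at least 3 arrays, and each gene was read from its highest probe set. The 24 arrays were fitted with 8 group means in limma 3.58.1 (R 4.3.3, statmod 1.5.0; lmFit, eBayes with an intensity trend, 16 residual degrees of freedom), with two-sided tests, Benjamini-Hochberg adjustment over 12352 genes and a call at an adjusted p under 0.05.

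The genes and lists were chosen with earlier results of these data known. All 9 genes are named whatever their values. Genes named from a list were drawn, per list and time, from up to 4 called genes with the largest change, else up to 2 with the highest level. Defining markers, paralogs and the 3 genes most like each of the 8 were drawn on as well. Not all genes picked by these rules are named. Ntrk3, Twist1, Tle3, Bmpr1a, Ehmt1, Eci2, Cd36, Lpl and Ly6d at 76 h were named after their values were seen. Alternatives covered the filter, floor, pseudocount, normalization, probe set, variance model, array weights, threshold, control arrays, a replicate block, 6-array fits and leaving out each array in turn. Figures used Python 3.11.15 with matplotlib 3.10.9.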

Additional observations from a re-analysis of the deposited data

Results flagged for a closer look

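The P4 minus oil difference of Cidea varied between the 4 times (limma F-test, adjusted p = 0.00274): in order of time it was -0.48, 0.29, 0.04 and -1.32 (log2). That of Cox8b varied as well (limma F-test, adjusted p = 0.00449), at -0.60, -0.11, 0.28 and -1.24. For both genes all 3 P4 arrays lay below all 3 oil arrays at 76 h (18.9% of all genes did so) and at 4 h (12.8%). At 4 h neither gene was called, and the Cidea groups nearly met, at 627 with P4 and 631 in oil.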

How the results depend on the processing

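Cidea, Cox8b and Cox7a1 were called lower at 76 h in all 24 fits that left out 1 array (adjusted p up to 0.00128, 0.00121 and 0.0300) and in all 16 other settings. Leaving out arrays gave 3 to 4 called genes at 76 h, 0 at 4, 16 and 28 h, 2 to 3 for the difference between times and 1 to 2 for the oil groups. Prdm16 kept its call in 8 of 24 such fits and in 8 of 14 other settings; quantile normalization (adjusted p = 0.0518) and centring (0.0563) ended it. Array weights gave 3 called genes at 4 h, 6 at 16 h, 1 at 28 h, 7 at 76 h and 6 for the oil groups, on a background of 2771, 7332, 1619 and 4827 calls over all genes at the 4 times. The cause was not tested. The gene called at 28 h was Dio2, and Dio2 was among those called at 76 h, although it passed the filter only through the P4 arrays of 76 h. An adjusted p under 0.1 gave 2 for the oil groups. For the oil groups and the difference between times, the F-test share over all genes was counted only in the main fit (12.2% and 10%). With the 9 oil arrays from other times, and with all 12, 7 genes were called at 76 h in each case, 1 of them Dio2, which passed the filter only through the P4 arrays of 76 h.

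Before 76 h several uncalled changes turned sign. Under array weights these were Prdm16 at 4 h (-0.10) and 28 h (-0.044) and Ppargc1a at 28 h (-0.45), and under centring Ppargc1a at 28 h (-0.00828). Against oil arrays from the other times they were Ucp1 (1.09), Cidea (0.00551) and Elovl3 (0.25) at 4 h, Prdm16 at 16 h (0.021), and at 28 h Ucp1 (-0.63), Cidea (-0.00346), Cox8b (-0.22), Cox7a1 (-0.54), Prdm16 (-0.016), Ppargc1a (-0.058) and Dio2 (-0.10). Against all 12 oil arrays they were Ucp1 (0.81) and Elovl3 (0.11) at 4 h, and at 28 h Ucp1 (-0.46), Cox8b (-0.095), Cox7a1 (-0.37) and Ppargc1a (-0.037). Leaving out arrays gave ranges through 0 for Ucp1 (-0.41 to 0.31) and Prdm16 (-0.034 to 0.19) at 4 h, for Cox8b (-0.24 to 0.033) and Elovl3 (-0.15 to 0.14) at 16 h, and at 28 h for Ucp1 (-0.47 to 0.72), Cidea (-0.14 to 0.32), Cox7a1 (-0.18 to 0.33), Prdm16 (-0.018 to 0.44) and Ppargc1a (-0.22 to 0.26).

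The labels give the same replicate numbers to all groups. Of 12 pairs of a P4 and an oil array of 1 time and number, 6 had deviations correlated over 0.1 (r from -0.018 to 0.35), so the number was not taken as a pairing. With the replicate number as a block 3 of the 8 genes were called at 76 h, since Prdm16 stood at an adjusted p of 0.0507; Cidea, Cox8b and Cox7a1 stayed called, and the counts at the earlier times stayed at 0. Over all genes the block gave 2148 calls at 76 h and fits to the 6 arrays of a time 11, 16, 76 and 3533. Signal near the array median limits Ucp1, Prdm16, Elovl3, Ppargc1a and Dio2, whose fold changes the background can shrink.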
